A study of Mus musculus with 8 samples.

Results

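The nuclear receptor coregulators and retinoid X receptor (RXR) genes described here were 9 genes chosen by symbol, *Rxra*, *Rxrb*, *Rxrg*, *Ncor1*, *Ncoa1*, *Ncoa2*, *Ncoa3*, *Med1* and *Hr*, among the 26590 gene symbols of a table of fetal mouse heart expression. They held 37 transcript rows, and all 37 passed the filter on low values, a genotype mean above 1 RPKM (reads per kilobase of transcript, scaled to the mapped reads of the sample). RNA was sequenced from whole hearts of 4 *Dio3+/+* and 4 *Dio3-/-* male fetuses, all labelled C57BL/6J, with E13.5 in every sample title, while the text of the study names both E13.5 and E14.5 for these hearts. The age field of 2 *Dio3-/-* hearts gave E18.5 instead, and those hearts are inside the *Dio3-/-* mean and could not be left out. *Dio3-/-* fetuses lack type 3 deiodinase, the enzyme that inactivates thyroid hormones, in every tissue. The table gave the mean and the coefficient of variation (CV, the SD divided by the mean) of each genotype and no value for a single heart, so each level below is a mean ± SD of 4 hearts. With 4 hearts no heart can lie more than 1.5 SD from its mean, and this limit was used to say whether the genotypes could overlap.

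Thyroid hormone receptors bind DNA mostly as heterodimers with an RXR, and RXRs serve the retinoic acid, vitamin D and peroxisome proliferator-activated receptors in the same way. Without hormone the receptor pair holds a corepressor complex built on NCOR1, and hormone exchanges it for p160 coactivators, the products of *Ncoa1*, *Ncoa2* and *Ncoa3*, and for the Mediator complex, which the MED1 subunit joins to the receptor. *Hr* encodes hairless, a corepressor best known from brain and hair follicle and itself a known target gene of thyroid hormone.

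Of the 9 genes, *Hr* was higher in *Dio3-/-* hearts and was the only one to pass the test, at an adjusted *P* value under 0.05 by limma. Among all 14657 genes tested, 2.59% passed it in either direction. The 7 genes above 10 RPKM, *Rxra*, *Rxrb*, *Ncor1*, *Ncoa1*, *Ncoa2*, *Ncoa3* and *Med1*, differed between genotypes by a log2 fold change between -0.06 and 0.10. Their 95% confidence intervals lay between -0.26 and 0.24, so a difference beyond 0.833-fold or 1.18-fold on the log2(RPKM + 0.5) scale was outside the interval of each of them. The median log2 fold change of the 9 genes was 0.04, and that of all genes tested was also 0.04, with a range from -0.04 to 0.12 between the quartiles. *Hr* was also the only one of the 9 whose genotypes could not overlap, as was the case for 3.86% of all genes tested.

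**Figure D1:**
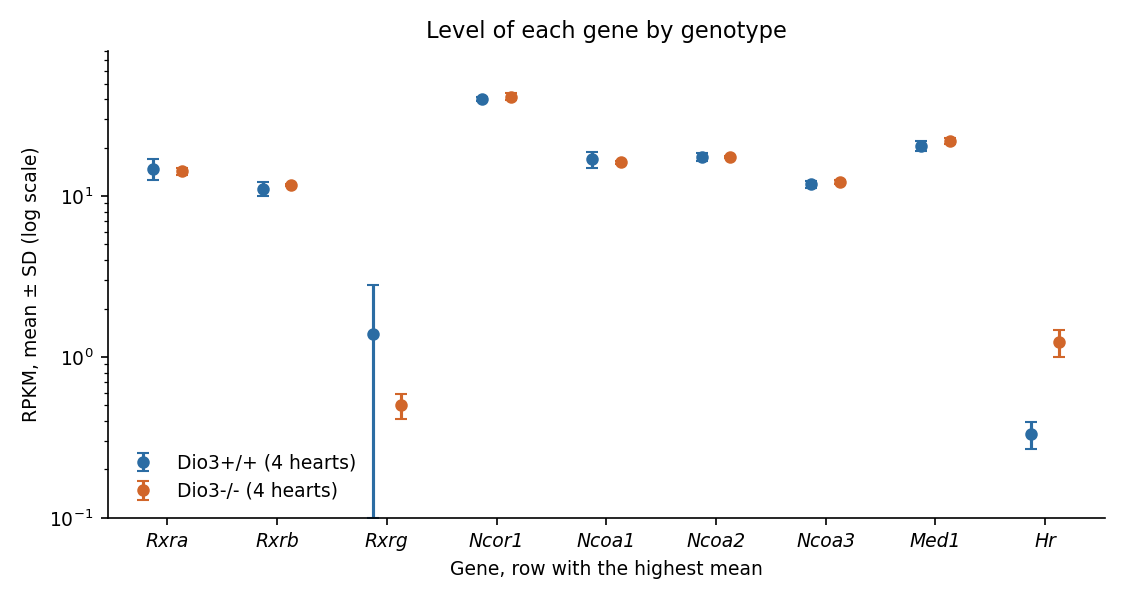
Mean RPKM on a log axis for each gene in *Dio3+/+* (blue) and *Dio3-/-* (orange) hearts, with bars of 1 SD over 4 hearts; the lower bar of *Rxrg* in *Dio3+/+* hearts reaches below 0 and ends at the axis. The genotypes stand apart for *Hr*, at 0.33 and 1.23 RPKM, and the widest bar is that of *Rxrg* in *Dio3+/+* hearts.

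*Ncor1* had the highest level of the 9 genes in both genotypes, followed by *Med1*. In *Dio3+/+* hearts *Ncoa2*, *Ncoa1* and *Rxra* came next, with mean ± SD ranges that overlapped between neighbours in that order, then *Ncoa3* and *Rxrb*, which also overlapped, and last *Rxrg* and *Hr*, which overlapped because of the spread of *Rxrg*. In *Dio3-/-* hearts the first 7 places were held by the same genes in the same order, with an overlap between *Ncoa3* and *Rxrb* only. *Hr* and *Rxrg* exchanged the last places, and their means ± SD in *Dio3-/-* hearts did not overlap.

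*Rxra*, the main RXR of the developing heart, measured 14.7 ± 2.21 RPKM in *Dio3+/+* hearts against 14.2 ± 0.712 RPKM in *Dio3-/-* hearts. Its log2 fold change was -0.05 ± 0.10 (SE), with an adjusted *P* value of 0.833. *Rxrb*, which is expressed in most tissues, measured 11.1 ± 1.11 RPKM in *Dio3+/+* hearts against 11.7 ± 0.234 RPKM in *Dio3-/-* hearts, and the log2 fold change was 0.08 ± 0.07, with an adjusted *P* value of 0.593. Hearts of the genotypes could overlap for both genes, and the 4 rows of *Rxrb* gave log2 fold changes between 0.08 and 0.09.

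*Rxrg*, the RXR with the most restricted expression, known from skeletal muscle and brain, behaved differently in its spread. It measured 1.38 ± 1.41 RPKM in *Dio3+/+* hearts against 0.50 ± 0.09 RPKM in *Dio3-/-* hearts. The log2 fold change was -0.91 ± 0.44, with a 95% confidence interval from -1.90 to 0.08 and an adjusted *P* value of 0.308, and the other of its 2 rows gave -0.92. From the mean and SD, the highest *Dio3+/+* heart had at least 2.07 RPKM and the lowest at most 0.682 RPKM, while no *Dio3-/-* heart could exceed 0.645 RPKM. At least 1 *Dio3+/+* heart was therefore above all 4 *Dio3-/-* hearts, and the table does not show which. A CV above 1 in *Dio3+/+* hearts, such as the 1.02 of *Rxrg*, was found in 124 genes, 0.846% of those tested. *Rxrg* passed the filter on low values only through its *Dio3+/+* mean.

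Skeletal muscle markers and most keratinocyte markers were also uneven between the *Dio3+/+* hearts. Of 6 genes of embryonic skeletal muscle, *Myod1*, *Myf5*, *Myog*, *Myh3*, *Pax7* and *Chrna1*, chosen after these values were seen, all 6 had lower means in *Dio3-/-* hearts, with CVs between 0.76 and 1.62 in *Dio3+/+* hearts and a summed level of 32.0 RPKM against 3.88 RPKM. None of the 6 was at 0 in either genotype, and none of the 4 tested passed the test. *Myog*, a transcription factor of muscle differentiation, measured 9.78 RPKM with a CV of 1.56 in *Dio3+/+* hearts and 1.17 RPKM with a CV of 0.86 in *Dio3-/-* hearts. Of 6 keratinocyte markers, 5 had lower means in *Dio3-/-* hearts and the same number had a CV above 0.5 in *Dio3+/+* hearts, with a summed level of 5.67 RPKM against 2.71 RPKM. Of 6 neuron markers, 0 had a CV above 0.5 in *Dio3+/+* hearts and 4 had higher means in *Dio3-/-* hearts. Their CVs in *Dio3+/+* hearts ran from 0.08 to 0.47. Of 8 hepatocyte markers, 7 had a CV above 0.5 in *Dio3+/+* hearts, and all 8 had higher means in *Dio3-/-* hearts. The part of these tissues in the difference and the spread of *Rxrg* was not tested. In whole hearts fewer cells of a type and less RNA per cell cannot be told apart.

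**Figure D2:**
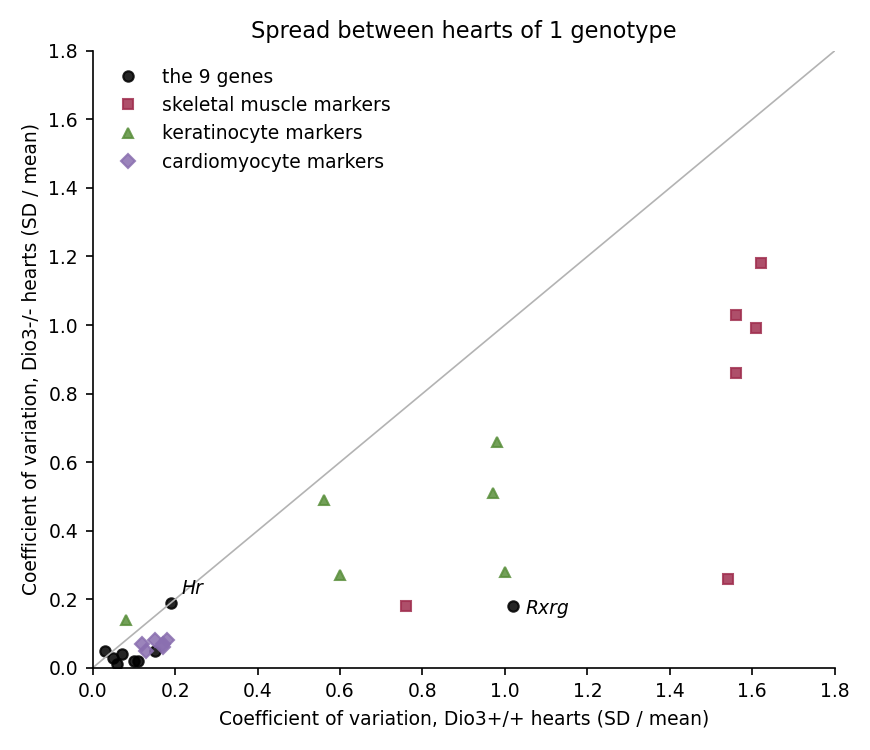
CV in *Dio3+/+* hearts (horizontal axis) against CV in *Dio3-/-* hearts (vertical axis) for the 9 genes and for skeletal muscle, keratinocyte and cardiomyocyte markers, with a line of equal CV. *Rxrg*, at 1.02 and 0.18, lies apart from the other 8 genes. All but 1 of the skeletal muscle and keratinocyte markers also had the higher CV in *Dio3+/+* hearts, but both lists are widely scattered. In *Dio3+/+* hearts the CVs ran from 0.76 to 1.62 for skeletal muscle and from 0.08 to 1.00 for keratinocyte markers. In *Dio3-/-* hearts they ran from 0.18 to 1.18 and from 0.14 to 0.66.

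As shares of the summed RXR level, *Rxra* made up 54.2% in *Dio3+/+* and 53.8% in *Dio3-/-* hearts, *Rxrb* 40.7% and 44.3%, and *Rxrg* 5.08% and 1.89%. The sum was 27.2 RPKM in *Dio3+/+* hearts against 26.5 RPKM in *Dio3-/-* hearts. *Thra*, the thyroid hormone receptor gene of cardiac muscle and a partner of these receptors, was at 46.3 RPKM in *Dio3+/+* hearts against 46.5 RPKM in *Dio3-/-* hearts, and the log2 fold change was 0.00 ± 0.05, with an adjusted *P* value of 0.979. The level of *Thra* was thus 1.70 times the RXR sum in *Dio3+/+* and 1.76 times in *Dio3-/-* hearts. These shares and ratios rest on genotype means of the highest row of each gene, 1 of 4 rows for *Thra*, and carry no error. Which isoform of the receptor that row of *Thra* covers was not determined.

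The RXR genes have sequence at their start sites in the RefSeq annotation of build GRCm38.p6. There 6 of the 9 genes, all but *Hr*, *Ncoa2* and *Ncoa3*, matched with 10 start sites. The 250 bases before 3 of these starts are shown because *Rxra* and *Rxrg* hold the letters AGGTCA, the half-site that RXR heterodimers recognize as a repeat, before a second start, while the first start of *Rxra* is rich in CpG and holds none. AGGTCA and its reverse complement TGACCT are in capitals, and each window ends at the base before the start on the plus strand.
Rxra, first start, chr2:27676951-27677200: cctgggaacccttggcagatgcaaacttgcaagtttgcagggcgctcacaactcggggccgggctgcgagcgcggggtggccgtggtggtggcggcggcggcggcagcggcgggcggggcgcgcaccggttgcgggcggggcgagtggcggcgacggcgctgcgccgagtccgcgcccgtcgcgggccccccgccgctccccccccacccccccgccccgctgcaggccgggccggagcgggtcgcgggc
Rxra, second start, chr2:27709042-27709291: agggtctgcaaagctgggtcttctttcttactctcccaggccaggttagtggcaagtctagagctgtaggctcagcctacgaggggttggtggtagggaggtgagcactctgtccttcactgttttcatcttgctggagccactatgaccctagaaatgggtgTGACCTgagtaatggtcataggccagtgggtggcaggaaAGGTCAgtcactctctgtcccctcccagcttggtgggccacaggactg
Rxrg, second start, chr1:167618015-167618264: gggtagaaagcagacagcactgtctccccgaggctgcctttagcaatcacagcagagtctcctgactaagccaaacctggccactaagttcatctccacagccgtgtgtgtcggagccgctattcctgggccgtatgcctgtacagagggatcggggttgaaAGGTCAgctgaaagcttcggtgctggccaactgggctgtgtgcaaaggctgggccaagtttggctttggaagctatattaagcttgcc
The window of the first *Rxra* start had 81.2% GC and 40 CpG, against medians of 52.4% and 6 over all 32851 starts. The window of the second start had 55.2% GC, 1 CpG and 2 half-sites, TGACCT beginning 87 bases and AGGTCA beginning 48 bases before the start. The second *Rxrg* start had 55.2% GC, 7 CpG and 1 half-site, beginning 88 bases before the start. Such a half-site on either strand was found before 14.0% of all starts, and 2 or more before 1.36%. Of the 10 starts of the 6 genes, 2 held it. A match of letters is a description of these windows, and which start gave the reads of each row was not tested.

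*Ncor1*, the corepressor that holds unliganded thyroid hormone receptors silent, measured 40.1 ± 1.20 RPKM in *Dio3+/+* hearts against 41.4 ± 2.07 RPKM in *Dio3-/-* hearts. The log2 fold change was 0.05 ± 0.05, with a 95% confidence interval from -0.06 to 0.15 and an adjusted *P* value of 0.673. Hearts of the genotypes could overlap, and the difference of the means was smaller than the SD in *Dio3-/-* hearts and close to that in *Dio3+/+* hearts. The 11 rows of *Ncor1* spanned 18.3 to 40.1 RPKM in *Dio3+/+* and 18.4 to 41.4 RPKM in *Dio3-/-* hearts, and the lowest row was 0.455 of the highest in *Dio3+/+* and 0.444 in *Dio3-/-* hearts. Their log2 fold changes lay between 0.00 and 0.09.

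Among the p160 coactivators, *Ncoa1* measured 16.9 ± 1.86 RPKM in *Dio3+/+* hearts against 16.2 ± 0.324 RPKM in *Dio3-/-* hearts. *Ncoa2* measured 17.6 ± 1.05 and 17.5 ± 0.175 RPKM, and *Ncoa3* 11.9 ± 0.593 and 12.2 ± 0.366 RPKM, in the same order of genotypes. For each of the 3 genes the genotypes could overlap. The log2 fold changes were -0.06 ± 0.07 for *Ncoa1*, -0.01 ± 0.05 for *Ncoa2* and 0.04 ± 0.05 for *Ncoa3*, with adjusted *P* values of 0.729, 0.950 and 0.729. *Ncoa2* held 37.9% of the summed p160 level in *Dio3+/+* and 38.1% in *Dio3-/-* hearts, *Ncoa1* 36.5% and 35.4%, and *Ncoa3* 25.6% and 26.6%.

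The rows of *Ncoa2* and *Ncoa1* stood in similar proportions in the genotypes. The lowest of the 7 rows of *Ncoa2* was 0.122 of the highest in *Dio3+/+* and 0.120 in *Dio3-/-* hearts, and the corresponding values for the 5 rows of *Ncoa1* were 0.569 and 0.571. The level of *Ncor1* was 0.865 times the p160 sum in *Dio3+/+* and 0.901 times in *Dio3-/-* hearts. No row of a p160 gene passed the test.

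*Med1*, the Mediator subunit that contacts liganded nuclear receptors, measured 20.4 ± 1.43 RPKM in *Dio3+/+* hearts against 22.0 ± 0.880 RPKM in *Dio3-/-* hearts. It had the largest log2 fold change of the 7 genes above 10 RPKM, 0.10 ± 0.06, with a 95% confidence interval from -0.03 to 0.24 and an adjusted *P* value of 0.381. Its 4 rows gave log2 fold changes between 0.08 and 0.14, of which the lowest adjusted *P* value was 0.282. The genotypes could overlap.

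*Hr* measured 0.33 ± 0.06 RPKM in *Dio3+/+* hearts against 1.23 ± 0.23 RPKM in *Dio3-/-* hearts, in its only row. No *Dio3+/+* heart could exceed 0.433 RPKM and no *Dio3-/-* heart could be below 0.867 RPKM, so every *Dio3-/-* heart was above every *Dio3+/+* heart. The ratio of the means was 3.73, and the log2 fold change on the scale with 0.5 added to each RPKM value was 1.06 ± 0.13. The 95% confidence interval ran from 0.77 to 1.35, and the adjusted *P* value was 0.0056 by limma. *Hr* passed the filter on low values only through its *Dio3-/-* mean. With an unequal-variance test, the kind named in the study's methods, in place of the moderated one, its adjusted *P* value was 0.0697. By quantitative PCR in a larger number of fetal hearts, the study reported *Hr* as strongly upregulated in *Dio3-/-* hearts, and also at E18.5.

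The level of *Hr* equalled 0.824% of that of *Ncor1* in *Dio3+/+* and 2.97% in *Dio3-/-* hearts. The CV was 0.19 in each genotype, whereas it was higher in *Dio3+/+* hearts for 7 of the other 8 genes and for 65.4% of all genes tested.

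Keratinocytes and neurons, in which *Hr* is known to be expressed, were checked by their markers. Of the 6 keratinocyte markers, 5 had lower means in *Dio3-/-* hearts, and the 2 tested did not pass the test. Of 6 neuron markers, 3 were tested and 1 was higher in *Dio3-/-* hearts, *Tubb3*, a neuronal tubulin, at 2.08 RPKM in *Dio3+/+* hearts against 3.54 RPKM in *Dio3-/-* hearts, and the log2 fold change was 0.65 ± 0.09, with an adjusted *P* value of 0.00856. The summed level of the neuron list was 4.88 RPKM in *Dio3+/+* hearts against 6.45 RPKM in *Dio3-/-* hearts, with no marker at 0. The part of keratinocytes and of neurons in the difference of *Hr* was not tested.

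**Figure D3:**
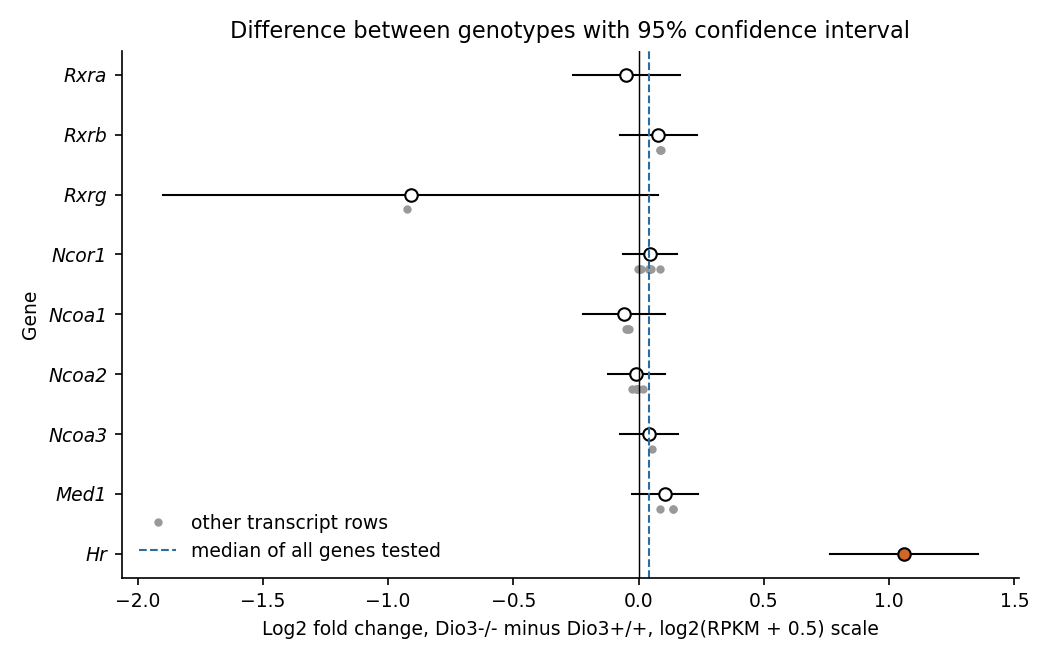
Log2 fold change of the 9 genes, *Dio3-/-* minus *Dio3+/+*, with 95% confidence intervals on the log2(RPKM + 0.5) scale; grey points are the other transcript rows, the filled point passed the test and the dashed line is the median of all genes tested. The interval of *Hr*, from 0.77 to 1.35, lies to the right of 0, and those of the other 8 genes include 0.

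The rest of the pathway was described with 6 lists of partners and coregulators. They held 89 genes, of which 82 were tested, 2 rose and 0 fell in *Dio3-/-* hearts. That is 2.44% of the 82, near the 2.59% of all genes, and their median log2 fold change was 0.02 against the 0.04 of all genes tested. *Ppargc1b*, which encodes PGC-1β, a coactivator of mitochondrial gene expression, rose from 8.46 ± 1.18 to 12.2 ± 0.730 RPKM, a log2 fold change of 0.50 ± 0.09, with an adjusted *P* value of 0.0301. *Smarcd3*, the SWI/SNF subunit BAF60c of heart and muscle, rose from 36.9 ± 1.48 to 44.3 ± 1.33 RPKM, a log2 fold change of 0.26 ± 0.05, with an adjusted *P* value of 0.0233. After all values were centred on the median log2 ratio of the table, a shift of 0.04, the adjusted *P* values were 0.0506 for *Ppargc1b* and 0.0537 for *Smarcd3*. They were 0.180 and 0.0787 with the unequal-variance test, and that of *Ppargc1b* was 0.0528 with no filter on low values.

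Among the 16 RXR partner receptors, 10 were tested and none passed, with a median log2 fold change of 0.01, and *Thra* had the highest level. None of the 5 tested of 6 partners of NCOR1 passed, with a median of 0.03, and *Tbl1x*, a subunit of that complex, was highest at 44.0 RPKM in *Dio3+/+* hearts against 47.1 RPKM in *Dio3-/-* hearts. None of the 6 other corepressors and deacetylases passed, with a median of -0.01, and *Hdac2* was highest at 54.8 and 54.7 RPKM. Of the 18 other coactivators, 1 passed, *Ppargc1b*, with a median of 0.04, and *Prmt1*, an arginine methyltransferase, had the highest mean over both genotypes, at 86.3 and 89.1 RPKM, although *Ncoa4* was higher in *Dio3+/+* hearts at 89.5 RPKM. Of the 11 SWI/SNF subunits, 1 passed, *Smarcd3*, with a median of -0.01, and the ATPase gene *Smarca4* was highest at 59.4 and 61.7 RPKM. None of the 32 other Mediator subunits passed, with a median of 0.03, and *Med14* was highest at 35.0 and 37.8 RPKM.

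**Figure D4:**
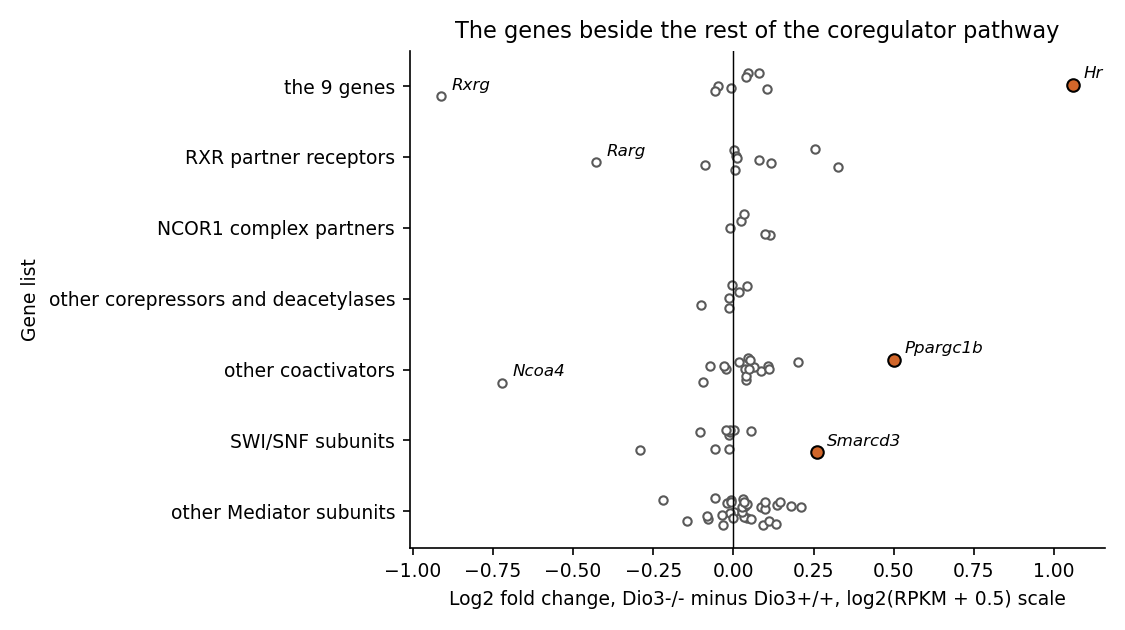
Log2 fold change, *Dio3-/-* minus *Dio3+/+*, of each tested gene in the 9 genes and in the 6 lists of partners and coregulators (1 point per gene, spread vertically within a list for legibility). The filled points, *Hr*, *Ppargc1b* and *Smarcd3*, passed the test, and most other points lie close to 0.

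Facts of the whole table bear on these values in the following way. *Dio3* itself was below 1 RPKM in both genotypes, at 0.35 RPKM with a CV of 1.23 in *Dio3+/+* and 0.13 RPKM with a CV of 0.76 in *Dio3-/-* hearts, and was not tested, so its level gives no check of the genotype labels. The 6 cardiomyocyte markers were all present and summed to 7102 RPKM in *Dio3+/+* hearts against 8311 RPKM in *Dio3-/-* hearts, and 1 of them, the ryanodine receptor gene *Ryr2*, was higher in *Dio3-/-* hearts, with a log2 fold change of 0.59 and an adjusted *P* value of 0.0231. The 8 hepatocyte markers summed to 16.0 RPKM and 108 RPKM, with CVs of at least 0.89 in *Dio3-/-* hearts and none past the test. The 6 erythroid markers all had lower means in *Dio3-/-* hearts, and 1, the embryonic globin gene *Hbb-bh1*, was lower past the test, with a log2 fold change of -1.51 and an adjusted *P* value of 0.0468. The table gives no read totals, so depth could not be set beside the means, and the part of these cell types and of the age field in the differences above was not tested.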

How the data were processed

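Total RNA of 8 whole fetal hearts was depleted of ribosomal RNA and sequenced, and per the labels and the study's methods the authors aligned the reads with Novoalign (version 2.08), used uniquely mapping reads and scaled each sample linearly to the smallest. The genome build is not given in the sources used here. The authors deposited a mean for each genotype and transcript row, read here as RPKM, the unit of their filter, since the table does not name it. They also deposited the CV (SD over mean, a ratio), and both were rounded to 2 decimals. Their fold change and *q* columns were not used. Groups came from the genotype labels, replicates are separate hearts (whether from shared litters is not given in the sources used here), and the table gives no read totals; those stated in the study's methods were not used here, so the precision that depth gives to low values was not calculated.

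As the table holds no values of single hearts, log2(RPKM + 0.5) was taken of each mean, its SD was approximated from the CV, and limma (version 3.58.1, in R 4.3.3) shrank the variance pooled over genotypes (6 degrees of freedom) toward its trend with the mean. Adjusted *P* values are Benjamini-Hochberg values over the 32703 of 51414 rows with a mean above 1 RPKM in a genotype. A gene counted as passing when any of its rows passed, and its values are those of its row with the highest mean. On simulated data of 32703 rows, 185 of 200 rows changed by 1 on the log2 scale were recovered, with 10 false calls. The changed rows were drawn only from rows with means above those of *Hr* and *Rxrg*, with the same spread in both genotypes. The recovery therefore does not apply to rows as low as those of *Hr* and *Rxrg*, or as unequal in spread as those of *Rxrg*.

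The 9 genes and all lists were chosen with earlier results of these data known. All 9 genes are named, and of the 6 pathway lists the genes that passed and the highest. Of the markers of cardiomyocytes, keratinocytes, neurons, hepatocytes and erythroid cells, only the genes that passed are named. *Dio3*, the other keratinocyte, hepatocyte and erythroid values, the CVs of the neuron markers, the skeletal muscle markers, *Ncoa4*, *Rarg* and the neighbours of *Hr* were named after their values were seen. Alternatives were 2 pseudocounts, 3 filters, no trend, 1 row per gene, an unequal-variance test, centring and CVs raised by 0.005.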

Additional observations from a re-analysis of the deposited data

How the results depend on the processing

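The 10 alternatives reversed none of the 9 genes. Of these, 8 passed the test under no alternative that tested them, and *Hr* passed under 8 of the 9 that did, with a log2 fold change between 0.75 and 1.63 (highest with a pseudocount of 0.1) and adjusted *P* values from 0.0021 to 0.0697. The count of the 9 genes past the test was 1, and it was 0 with the unequal-variance test and 0 with a filter on an average above 5 RPKM, which leaves *Hr* and *Rxrg* untested. Over all genes tested, 379 passed, against 221 with no filter, 37 with the unequal-variance test, 197 after centring and 206 with CVs raised by 0.005, while the filter on an average above 5 RPKM raised the count to 429. Of the pathway lists 2 genes passed, against 1 with no filter (*Smarcd3*), 0 with the unequal-variance test, 0 after centring and 3 with the filter on an average above 5 RPKM (*Ncoa4* as well); the cause was not tested. No paired analysis was possible because the table holds genotype means only, and for the same reason leaving out single hearts was not run. The 2 decimals of the table limit the precision of low means and of small CVs.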

Other observations

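*Ncoa4*, a coactivator gene that also encodes the receptor for the autophagy of ferritin and is known from erythroid cells, was the gene of the pathway lists with the lowest log2 fold change. It measured 89.5 ± 17.9 RPKM in *Dio3+/+* hearts against 54.1 ± 10.3 RPKM in *Dio3-/-* hearts, and the log2 fold change was -0.72 ± 0.16, with an adjusted *P* value of 0.0551 by limma, and passed the test only with the filter on an average above 5 RPKM. The 6 erythroid markers summed to 80629 RPKM in *Dio3+/+* hearts against 27923 RPKM in *Dio3-/-* hearts. Their part in the level of *Ncoa4* was not tested.

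*Rarg*, a retinoic acid receptor gene and partner of the RXRs, measured 9.70 ± 6.50 RPKM in *Dio3+/+* hearts against 7.08 ± 0.57 RPKM in *Dio3-/-* hearts. Its CV in *Dio3+/+* hearts was 0.67, below the 1.02 of *Rxrg*, and whether the same hearts were high for both genes cannot be seen from genotype means. Its log2 fold change was -0.43 ± 0.37, with an adjusted *P* value of 0.588.

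The 4 genes next to *Hr* in the RefSeq gene order of GRCm38.p6 that were tested, *Lgi3* and *Reep4* on one side and *Nudt18* and *Fam160b2* on the other, had log2 fold changes between 0.09 and 0.15, and none passed the test, with adjusted *P* values from 0.250 to 0.695.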
